A study of Mus musculus with 8 samples.

Results

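The subunits of the mitochondrial respiratory chain were followed through both sorted cell populations of the tumors, as 86 genes among the 19938 genes that had a probe set with a single gene symbol. Members were all genes whose symbol starts with Ndufa, Ndufb, Ndufc, Ndufs, Ndufv, Uqcr, Cox4 to Cox8 or Atp5, together with Sdha, Sdhb, Sdhc and Sdhd. The rule uses no difference between groups. The rule was met by 109 probe sets, and each gene was represented by the probe set with the highest mean signal over the 8 arrays. Genes of the chain are known for near-identical processed copies in the genome, and 15 members had more than 1 probe set, so a signal may include such copies. Of the members, 39 belonged to complex I, 4 to complex II, 8 to complex III, 18 to complex IV and 17 to complex V. By what they encode, 70 are structural subunits, 8 are isoforms restricted in other tissues to testis, muscle, lung or stressed cells, and 8 share a prefix but assist assembly (7 Ndufaf genes and Cox7a2l). The 3 X-linked genes Ndufa1, Ndufb11 and Cox7b were left out, as the rule required.

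The respiratory chain sits in the inner mitochondrial membrane. Complex I takes electrons from NADH and complex II takes them from succinate, complex III passes them to cytochrome c, complex IV hands them to oxygen, and complex V uses the proton gradient built by complexes I, III and IV to make ATP. A few subunits of complexes I, III, IV and V are encoded by mitochondrial DNA, and the genes described here are the nuclear ones, whose products must be imported and built into the complexes in fixed proportions. Neutrophils are known for few mitochondria and a reliance on glycolysis, and macrophages and dividing lymphocytes for more respiration.

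Tail tumors came from 4 TAX-LUC mice, 2 of them IL-15+/+ TAX+ LUC+ and 2 IL-15-/- TAX+ LUC+. All carried the Tax oncogene of the leukemia virus HTLV-1 under the human granzyme B promoter, which is active in cytotoxic lymphocytes, and a luciferase gene under the viral promoter that Tax switches on. The IL-15-/- mice were on a C57BL/6 background, and were crossed with TAX-LUC mice on a mixed C57BL/6 and FVB background. Each tumor was sorted with an antibody to CD16/32 into CD16/32HI cells, labelled malignant large granular lymphocytes, and CD16/32LO cells, labelled tumor infiltrating, which gave 4 groups of 2 arrays. Replicate 1 of each genotype was a mouse of 14 months, called the older mouse here, and replicate 2 a younger one of 12 months, and nothing states that a shared number means a shared litter.

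Several properties of the arrays bear on every value below. The female transcript Xist was at 3.92 to 4.64 on the log2 scale in the IL-15+/+ arrays and at 10.08 to 10.75 in the IL-15-/- arrays, so sex and genotype cannot be told apart. The probe set of Il15 was at 5.18 to 6.88 in IL-15+/+ and 5.22 to 6.54 in IL-15-/- arrays, and since it also covers exons outside the deletion this checks little. The mean log2 level of 9 macrophage markers was 9.85 to 10.42 in the CD16/32HI arrays of 3 mice and 8.49 to 8.69 in their CD16/32LO arrays, while 10 neutrophil markers were at 7.77 to 8.06 and 10.09 to 10.55. In the older IL-15-/- mouse both lists ran the other way, with macrophage markers at 8.48 in the array labelled CD16/32HI and 10.23 in the array labelled CD16/32LO, and neutrophil markers at 10.80 and 8.32. The 8 markers of NK and cytotoxic lymphocytes were not raised in the CD16/32HI array of any mouse (5.74 against 7.24, 5.31 against 6.83, 4.86 against 4.98 and 4.89 against 5.16), so the label of malignant large granular lymphocytes was not borne out by them. Labels were kept as deposited, and population results are given with all 4 mice and without that mouse. Exactly equal values occurred only within 3 sets of arrays (all of replicate 1, IL-15+/+ of replicate 2, and IL-15-/- of replicate 2). These were taken as 3 normalization sets, an inference that no label states. Within a set the genotypes meet only in replicate 1, whereas the populations of a mouse always share a set. In RNA from sorted cells in bulk, fewer cells of a type and less RNA per cell cannot be told apart.

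The mean log2 levels of the structural subunits over the 8 arrays ran from 7.52 for Ndufv1, the subunit of complex I that binds NADH, to 12.64 for Cox6c, a small subunit of complex IV. The restricted isoforms had mean levels from 3.66 for Cox7b2 to 7.33 for Cox6b2. The Ndufaf genes, which assist in building complex I, had mean levels from 5.45 for Ndufaf6 to 9.59 for Ndufaf2. Ndufaf6 and the isoforms Cox7b2, Cox8b, Cox8c and Ndufa4l2 had mean levels below the median probe set. Their signals may lie near the background, which was not tested. Signals of different probe sets are not on a common scale, so levels are compared below only between arrays. From the lowest to the highest array a member spanned a median of 0.81 on the log2 scale, and 25 of the 86 spanned more than 1. The steadiest was Atp5h, in the stalk of the ATP synthase, with a span of 0.22, followed by Cox5b with 0.26. The widest spans belonged to the isoforms Cox6b2 (1.98) and Cox7a1 (1.59) and to Uqcr10 of complex III (1.58).

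By array, the median level of the 32 structural subunits of complex I was 10.03 and 9.58 in the CD16/32HI and CD16/32LO cells of the older IL-15+/+ mouse, 9.51 and 9.57 in those of the younger one, 9.65 and 9.84 in the older IL-15-/- mouse, and 10.09 and 9.79 in the younger one. For the 4 subunits of complex II, succinate dehydrogenase, the same pairs were 9.39 and 9.16, 8.94 and 8.96, 9.08 and 9.49, and 9.80 and 9.44. The 9 subunits of complex IV had medians of 11.79 and 11.32, 10.88 and 11.29, 11.42 and 11.76, and 11.98 and 11.53. Of the CD16/32HI arrays, that of the younger IL-15+/+ mouse held the lowest median in all 5 complexes. Its array median over all probe sets was 5.76, the lowest of the 8, but the CD16/32LO array of the same mouse had almost the same array median and higher medians in all 5.

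**Figure D1:**
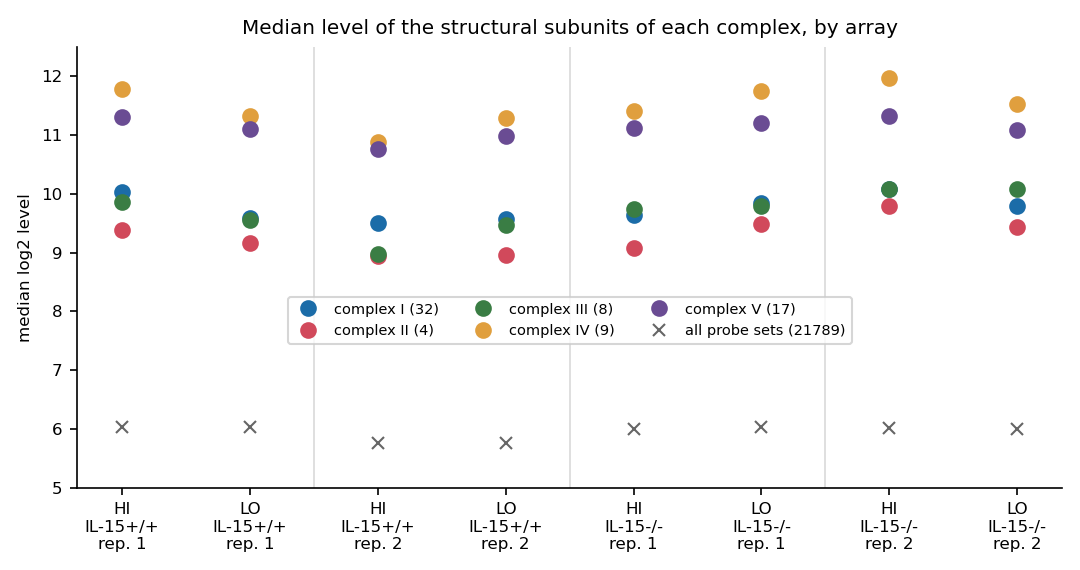
Median log2 level of the structural subunits of each complex (coloured points, with the number of subunits) and of all single-symbol probe sets (crosses) in the 8 arrays, in pairs by mouse. Heights are to be compared along the axis and not between complexes. In the younger IL-15+/+ mouse the CD16/32HI points of the 5 complexes lie below the CD16/32LO points, with complex IV at 10.88 and 11.29.

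The first comparison asked whether CD16/32HI and CD16/32LO cells of the same tumor differed in respiratory chain transcripts. With all 4 mice, no member passed limma at a Benjamini-Hochberg adjusted p under 0.05 over the 21789 probe sets (0 of 86, against 0% of all probe sets). At an unadjusted p under 0.05 there was 1 member, Cox7a1 (log2 difference 0.64, SE 0.21), or 1.16% of members against 1.18% of all probe sets. The median log2 difference of the members was 0.09, against 0.02 for all probe sets. Of the members 63 of 86 had differences above 0, against 11797 of the 21789 probe sets.

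The mice differed among themselves more than this median. CD16/32HI cells held the higher level of 78 members in the older IL-15+/+ mouse (median 0.38), of 38 in the younger IL-15+/+ mouse (median -0.04), of 37 in the older IL-15-/- mouse (median -0.09) and of 54 in the younger IL-15-/- mouse (median 0.11). All probe sets had medians between -0.02 and 0.05 in the 4 mice. In the same order 11367, 11952, 10771 and 10182 of the 21789 probe sets were higher in CD16/32HI cells. Only 2 members were higher in CD16/32HI cells of every mouse, Cox7a1 and Ndufa4l2, which is 2.33% of members against 4.14% of all probe sets.

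The 4 subunits of complex II moved together within each IL-15-/- mouse. Their medians in the 4 mice, in the order above, were 0.34, 0.00, -0.42 and 0.25. In the older IL-15-/- mouse all 4 were lower in the array labelled CD16/32HI, from the membrane anchors Sdhc (-0.51) and Sdhd (-0.35) to the flavoprotein Sdha (-0.49) and the iron-sulfur protein Sdhb (-0.33), and in the younger IL-15-/- mouse all 4 were higher. The 6 core subunits of complex I did the same, with 0 and 6 of them higher in these 2 mice (medians -0.21 and 0.22). Complex IV had medians of 0.27, -0.30, 0.14 and -0.01, complex I 0.42, -0.06, -0.14 and 0.13, complex III 0.46, -0.05, -0.09 and 0.15, and complex V 0.40, -0.06, 0.07 and 0.00. These differences were not tested against each other.

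**Figure D2:**
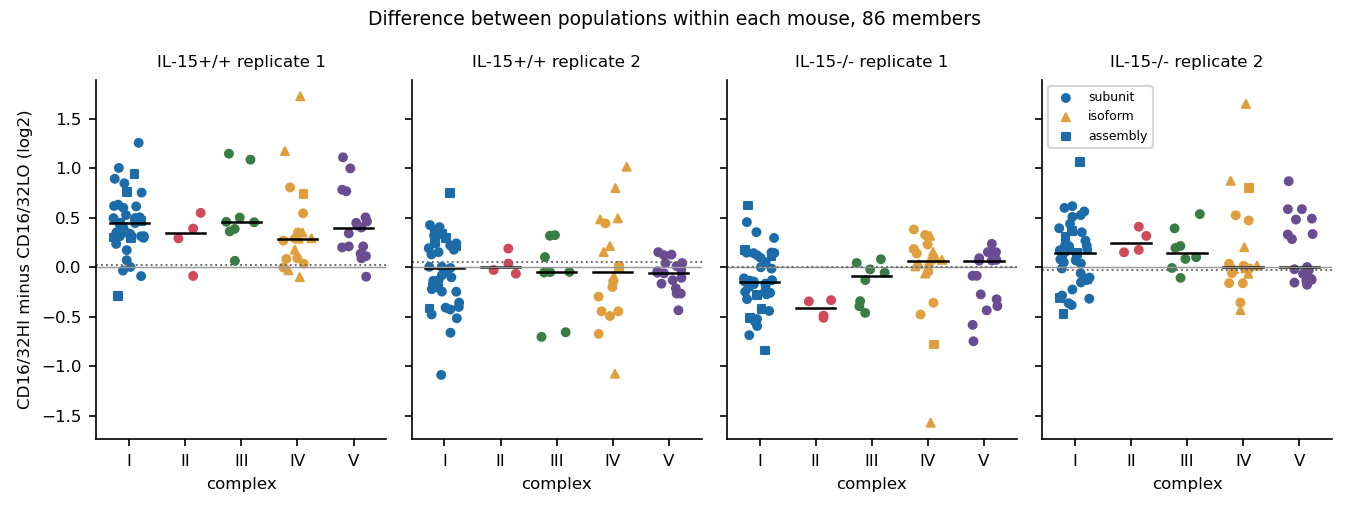
Difference in log2 level between CD16/32HI and CD16/32LO cells of each mouse (panels) for the 86 members, by complex, with circles for subunits, triangles for restricted isoforms and squares for assembly factors. Black bars are medians of a complex and the dotted line is the median of all probe sets; 78 members lie above 0 in the first panel, 38 in the second, 37 in the third and 54 in the fourth.

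The older IL-15-/- mouse was left out next because its marker lists ran the other way in these same data. The p-values of the 3 remaining mice do not account for that choice. Without this mouse, 7 members were higher in CD16/32HI cells and 0 were lower. That is 8.14% of members higher, against 6.67% of all 21789 probe sets, and 0% lower against 7.62%. The count of higher members was thus near the background. At an unadjusted p under 0.05 there were 21 members, or 24.4% against 26.4% of all probe sets in either direction. The median difference was 0.15, against 0.03 for all probe sets, and 63 members (73.3%) against 54.4% of all probe sets lay above 0. All 3 mice had the higher level in CD16/32HI and the fourth the lower in 25 members (29.1% against 19.6%), and all 3 had the lower level in CD16/32HI in 4 members, Ndufa13, Ndufaf7, Cox6a1 and Cox6a2 (4.65% against 22.8%).

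The 7 genes came from complexes I, IV and V, and for 3 of them the RefSeq promoter window held the core letters GCATGCGC of the motif bound by NRF1, a factor known for activating nuclear genes of the respiratory chain. Stretches of 80 bases upstream of the start site (build GRCm38.p6, 5′ to 3′ on the strand of the gene) are shown for these 3, because they are the called members with one of the 4 motifs searched, with the NRF1 letters in capitals.
Ndufaf4, chr4:24897935-24898014, plus strand: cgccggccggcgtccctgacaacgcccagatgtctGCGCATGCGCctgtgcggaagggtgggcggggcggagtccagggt
Atp5g2, chr15:102671048-102671127, minus strand: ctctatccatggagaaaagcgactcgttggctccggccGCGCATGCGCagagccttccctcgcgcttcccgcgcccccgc
Ndufa6, chr15:82354331-82354410, minus strand: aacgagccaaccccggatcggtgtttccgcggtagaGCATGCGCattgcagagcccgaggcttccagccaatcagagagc
In Ndufaf4 and Atp5g2 the letters occur on both strands in an overlapping palindrome, which fills 10 bases from 113 and 42 bases before the start site, and in Ndufa6 once, from 83 bases before it.

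Promoter windows of 300 bases, 250 before and 50 after the start, were found by symbol for 70 of the 86 members (75 windows). Searched on both strands, the NRF1 letters were in 12 member windows, or 16% against 2.71% of all 32851 windows. AAGATGGC, the core of the YY1 motif, was in 10 (13.3% against 2.75%), CCGGAAGT of the GABP motif in 5 (6.67% against 3.89%) and TCAAGGTCA of the ESRRA motif in 2 (2.67% against 0.423%). None of the last 3 was in a window of the 7 genes, and the windows of Cox6b2, Cox7a1, Ndufc2 and Cox5a held none of the 4, which says only that these letters are not in these windows. In the 3 mice the 12 members with the NRF1 letters had a median difference between the populations of 0.30 (3 of them called), the 2 with the ESRRA letters of 0.21, the 5 with the GABP letters of 0.08 and the 10 with the YY1 letters of 0.02, which were not tested against each other. A match is a description of the letters and no evidence that a factor binds.

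Cox6b2, the testis form of a complex IV subunit that faces the intermembrane space, differed most. In the IL-15+/+ mice its levels in CD16/32HI and CD16/32LO cells were 8.24 and 6.51 in the older and 7.78 and 6.98 in the younger mouse, and in the younger IL-15-/- mouse they were 8.30 and 6.65. In the older IL-15-/- mouse they were 6.32 and 7.89, so its arrays lay on the opposite sides. With all 4 mice its log2 difference was 0.65 (SE 0.58, adjusted p = 0.92 from limma). In the 3 mice Cox6b2 was 2.63-fold higher in CD16/32HI cells (log2 1.39, SE 0.20, adjusted p = 0.00158 from limma). The widely expressed Cox6b1 had a log2 difference of -0.14 in the same mice.

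Ndufaf4 helps to build an early assembly intermediate of complex I. Its CD16/32HI and CD16/32LO levels were 9.38 and 8.44 and 9.19 and 8.44 in the IL-15+/+ mice and 9.65 and 8.58 in the younger IL-15-/- mouse, against 8.37 and 9.22 in the older one. The groups did not overlap in the 3 mice, where the log2 difference was 0.92 (SE 0.14, adjusted p = 0.0027).

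Cox7a1, the form of subunit VIIa of heart and skeletal muscle, had levels of 7.08 and 5.90, 7.27 and 6.79, and 6.56 and 5.68 in these mice and was at 6.70 and 6.69 in the older IL-15-/- mouse. The lowest CD16/32HI level of the 3 mice lay below the highest CD16/32LO level, so the difference of 0.84 (SE 0.17, adjusted p = 0.00885) is one within mice. It was the only called gene whose levels in the fourth mouse were almost equal instead of turned. Cox7a2, the widely expressed form, had a log2 difference of -0.19.

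Of the 3 genes for the c ring of the ATP synthase, whose mature proteins are identical, Atp5g2 passed. Its levels were 11.11 and 9.998, 10.24 and 10.09, and 11.14 and 10.26 in the 3 mice and 10.26 and 11.01 in the fourth, with a log2 difference of 0.71 (SE 0.19, adjusted p = 0.0379). Both of its other probe sets were called as well (log2 differences 0.66 and 0.73, adjusted p = 0.0495 and 0.0391). Atp5g1 had a difference of 0.51 and Atp5g3 of 0.28, and neither passed.

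The accessory complex I subunits Ndufc2 and Ndufa6 and the complex IV subunit Cox5a, which sits on the matrix side of the enzyme, completed the called genes. Ndufc2 was at 11.66 and 10.65, 10.91 and 10.58, and 11.85 and 11.25 in the 3 mice and at 10.80 and 11.48 in the fourth (log2 0.64, SE 0.17, adjusted p = 0.0309). Cox5a was at 11.28 and 10.47, 10.88 and 10.44, and 11.38 and 10.85, against 10.64 and 11.12 (log2 0.59, SE 0.15, adjusted p = 0.0255). Ndufa6 was at 10.31 and 9.46, 10.004 and 9.60, and 9.91 and 9.48, against 9.62 and 10.17 (log2 0.57, SE 0.15, adjusted p = 0.0372). In all 3 genes the fourth mouse was turned.

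**Figure D3:**
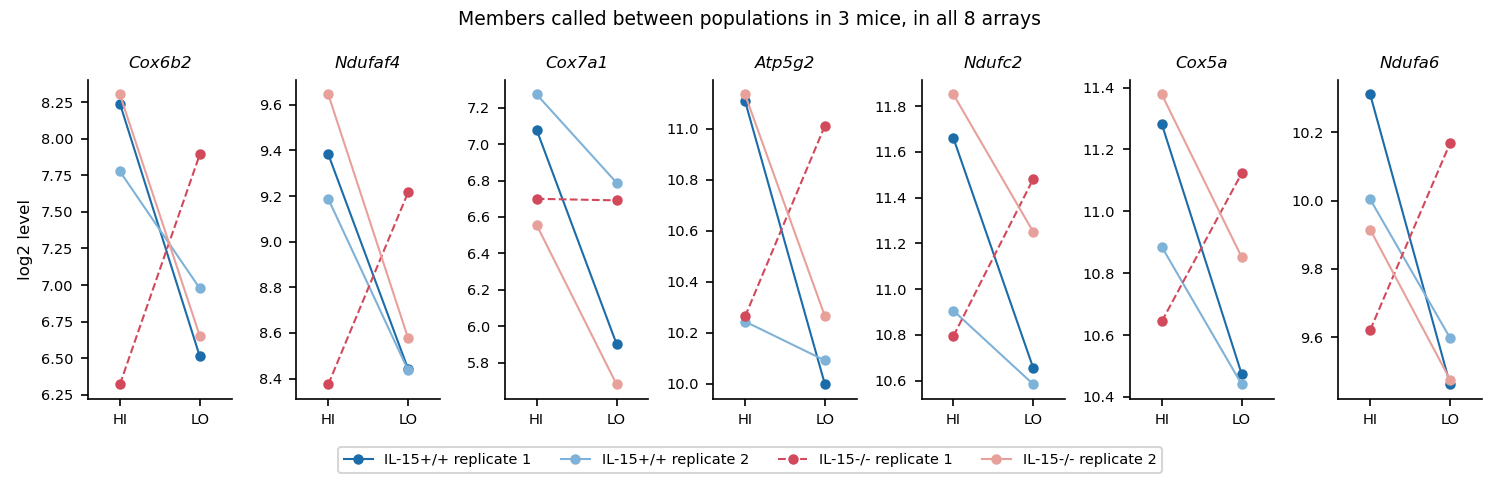
Log2 level in CD16/32HI and CD16/32LO cells of each mouse (lines join the arrays of a mouse) for the 7 members called in 3 mice, each on its own vertical scale. The dashed line is the older IL-15-/- mouse, which rises to the right in every gene but Cox7a1, where it is level at 6.70 and 6.69.

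The calls depended on the mice. Leaving out either array of the older IL-15+/+ mouse left 2 called members, Cox6b2 and Ndufaf4 (2.33% against 7.54% of all probe sets in either direction). Without either array of the younger IL-15-/- mouse there were 3, these and Cox7a1 (3.49% against 10.2%), and without either of the younger IL-15+/+ mouse 13, with all 7 among them (15.1% against 14.7%). The share of members called was thus below or near that of all probe sets in each of these refits. In the 3 mice, 7 of 9 macrophage markers, 10 of 10 neutrophil markers and 6 of 7 markers of dividing cells were also called between the populations. The first and the last list were higher in CD16/32HI cells and the second lower. The macrophage and neutrophil lists were the reason for leaving the fourth mouse out, so their calls are no separate support. With all 4 mice 0 markers of these 3 lists were called. Lymphocyte markers moved as well, with 6 of 7 T cell markers called (median difference -0.92, 1 of 7 above 0), 4 of 8 of NK and cytotoxic lymphocytes (median -1.10, 0 of 8 above 0) and 2 of 3 of B cells (median -1.08, 0 of 3 above 0). The part of these lists in the difference of the members was not tested.

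Most core subunits had small differences in the 3 mice, none of which passed. The catalytic complex I subunits Ndufs1, Ndufv1 and Ndufs7 differed by 0.12, 0.18 and -0.05, and the acyl carrier Ndufab1 by 0.22. Sdha, Sdhb, Sdhc and Sdhd differed by 0.12, 0.27, 0.25 and 0.14. In complex III the core proteins Uqcrc1 and Uqcrc2 differed by 0.32 and -0.03, the Rieske protein Uqcrfs1 by 0.31 and Uqcrb by 0.30. In complex IV Cox4i1, Cox5b and Cox6c differed by 0.19, -0.09 and 0.01. Of the catalytic part (F1) of the ATP synthase, Atp5a1, Atp5b and Atp5c1 differed by 0.39, 0.10 and 0.16. Quantile normalization turned the signs of Cox6c, Ndufs7 and Uqcrc2.

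Of the 8 restricted isoforms, 6 had differences above 0 in the 3 mice (median 0.20, against 0.15 for all members), and 2 passed, Cox6b2 and Cox7a1. Cox6a2, the muscle partner of Cox6a1, differed by -0.40 and Cox6a1 itself by -0.28, the lung form Cox4i2 by 0.03, Cox8b and Cox8c by 0.13 and 0.26 and Cox7b2 by -0.01, and none of these 6 genes passed. Ndufa4l2, known as a target of the hypoxia response, differed by 0.44, and its CD16/32HI level in the younger IL-15+/+ mouse (6.36) stood above the 7 other arrays, which were at 5.33 to 5.62. Its counterpart Ndufa4 differed by 0.07.

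The next comparisons asked how the absence of IL-15 related to these transcripts. In CD16/32HI cells 0 of 86 members passed limma, against 5 of 21789 probe sets (0.0229%), and 1 passed at an unadjusted p under 0.05 (1.16% against 4.91%). That gene was Cox6a1, at 11.79 and 11.15 in the IL-15+/+ and 12.14 and 12.21 in the IL-15-/- arrays (log2 0.71, SE 0.30, adjusted p = 0.854). The median difference between IL-15-/- and IL-15+/+ was 0.12 for the members and 0.09 for all probe sets. Among probe sets above the median mean level it was 0.14 for the 81 members there and 0.21 for all. For all 86 members it was -0.21 within replicate 1 and 0.49 within replicate 2, where all probe sets had medians of -0.03 and 0.23. In these replicates 19 and 74 of the 86 members were higher in the IL-15-/- array, against 10149 and 15539 of the 21789 probe sets.

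The members' direction in CD16/32HI cells was therefore opposite in the 2 replicates, and centring or quantile normalization brought the median to 0.02 or -0.04. Without the older IL-15-/- mouse it was 0.24, with 1 IL-15-/- array left. Marker lists differed between the replicates too. Within replicate 1 the median difference was -2.16 for macrophage markers (0 of 9 above 0), 2.81 for neutrophil markers (10 of 10) and -1.39 for markers of dividing cells (0 of 7). Within replicate 2 these medians were 0.47, 0.00 and 0.87. Their part in the members' direction was not tested.

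Both IL-15-/- arrays lay above both IL-15+/+ arrays in 9 members (10.5% against 24.1% of all probe sets) and below them in 8 (9.3% against 10.4%). With each array centred on its median the first count was 6 (6.98% against 15.9%), with quantile normalization 2 (2.33% against 13.5%), and among the 81 members above the median mean level 8 (9.88% against 35.6%). The largest differences after Cox6a1 were 0.61 for Uqcrq of complex III and 0.50 for Ndufa7 of complex I. The lowest were -0.70 for Cox6b2, -0.55 for Cox7a1 and -0.52 for Ndufa4l2, all isoforms of complex IV, and none passed. Within replicates 1 and 2 Cox6b2 differed by -1.92 and 0.53, so its mean came from the older pair alone, Ndufa4l2 by -0.12 and -0.92, mostly through the 1 high IL-15+/+ array, and Cox7a1 by -0.38 and -0.72.

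In CD16/32LO cells 0 of 86 members passed, against 8 of 21789 probe sets (0.0367%), and 1 had an unadjusted p under 0.05 (1.16% against 1.91%). Differences were small but mostly of one sign. The median was 0.30 in the members and 0.13 in all probe sets, and 79 of 86 members (91.9%) against 73% of all probe sets were higher in IL-15-/- tumors. Within replicate 1, whose arrays were taken as 1 normalization set, the median was 0.25 for the members and 0.00 for all probe sets. There 76 of 86 members were higher, against 10887 of the 21789 probe sets. Within replicate 2 the medians were 0.29 and 0.25, and 71 of 86 members were higher, against 17159 of the 21789 probe sets. With the normalization set as a block the members' median was 0.10. Genotype and set coincide in replicate 2, so that fit also draws on the CD16/32HI arrays.

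Both IL-15-/- arrays lay above both IL-15+/+ arrays in 54 members (62.8%, against 24.2% of all probe sets) and below them in 1, Cox6a2 (1.16% against 4.7%). With each array centred on its median 29 members were above (33.7% against 14.5%), with quantile normalization 28 (32.6% against 14.2%), and among the 81 members above the median mean level 52 (64.2% against 27.7%). The array medians of the younger IL-15+/+ mouse were the lowest of the 8, which centring takes out. By complex the median differences were 0.28 for complex I (31 of 32 subunits above 0), 0.45 for complex II (4 of 4), 0.41 for complex III (8 of 8), 0.26 for complex IV (7 of 9) and 0.25 for complex V (17 of 17).

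Sdhb, the iron-sulfur protein of complex II, had one of the larger differences, exceeded in 9 members. It was at 8.84 and 8.63 in the IL-15+/+ and at 9.25 and 9.22 in the IL-15-/- CD16/32LO arrays, which do not overlap, with a log2 difference of 0.50 (SE 0.33, adjusted p = 0.9999). Ndufc2 had the largest difference, at 10.65 and 10.58 against 11.48 and 11.25 (log2 0.75, SE 0.38). Ndufaf6, at 5.08 and 5.08 against 5.81 and 5.66, was the gene with the unadjusted p under 0.05 (log2 0.65, SE 0.23). Each of its values lay below the median of its array (5.76 to 6.04), so this signal was low. Atp5g2 followed with a difference of 0.59. The lowest were Cox6a2 (-0.34), Cox8b (-0.18) and Cox7a1 (-0.16). Cox6b2 was at 6.51 and 6.98 against 7.89 and 6.65, so its mean difference of 0.53 came from replicate 1 alone.

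One of the IL-15-/- CD16/32LO arrays is that of the older mouse, whose macrophage markers were at 10.23 and neutrophil markers at 8.32. Without this mouse the members' median was 0.26, with 1 IL-15-/- array left. Within replicate 2, which does not hold this mouse, the medians were 0.29 for the members and 0.25 for all probe sets. Within replicate 1, which holds it, they were 0.25 and 0.00. There the macrophage markers differed by a median of 1.67 and the neutrophil markers by -1.61, against 0.11 and -0.04 within replicate 2. In the CD16/32LO array of the other IL-15-/- mouse, the macrophage and neutrophil lists were at 8.57 and 10.52, inside the range of the IL-15+/+ CD16/32LO arrays (8.49 to 8.69 and 10.09 to 10.55). Markers of T cells were at 7.41 and 7.35 in the IL-15+/+ and at 5.52 and 6.26 in the IL-15-/- CD16/32LO arrays, and markers of NK and cytotoxic lymphocytes at 7.24 and 6.83 against 4.98 and 5.16. All 8 of the latter were lower in both replicates. The 3 B cell markers were lower as well (median difference -0.94), while all 7 markers of dividing cells were higher (median 0.49), by 1.05 within replicate 1 and -0.06 within replicate 2. The part of these lists in the difference of the members was not tested.

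**Figure D4:**
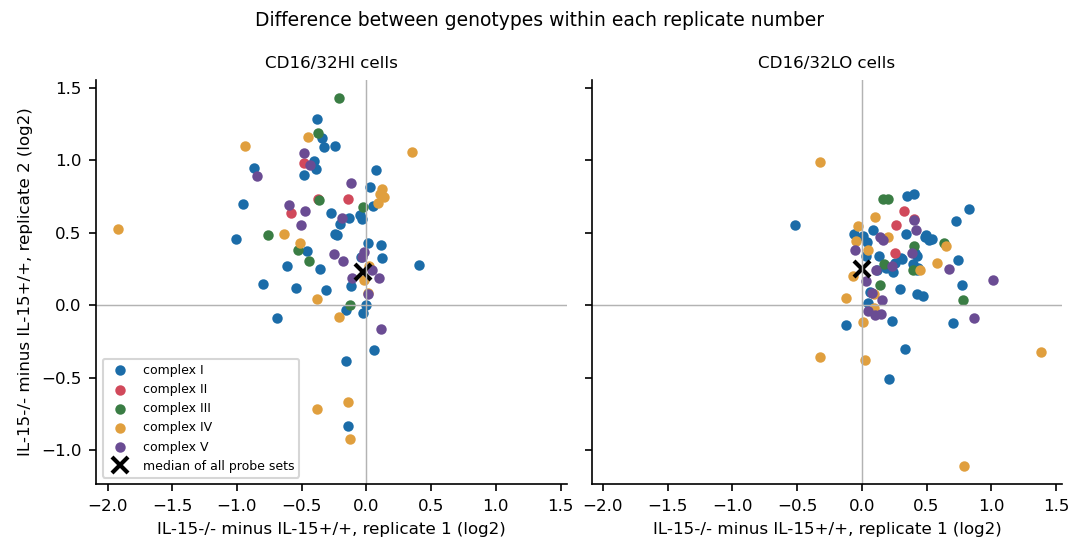
Log2 difference between IL-15-/- and IL-15+/+ arrays within replicate 1 (horizontal) and within replicate 2 (vertical) for the 86 members, coloured by complex, in CD16/32HI (left) and CD16/32LO cells (right). The black cross is the median of all probe sets. In CD16/32HI cells most members are left of 0 and above 0 (medians -0.21 and 0.49), and in CD16/32LO cells most are right of 0 and above 0 (medians 0.25 and 0.29).

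The last comparison tested whether the genotype difference itself differed between the populations, and 0 of 86 members passed (0% of all probe sets). At an unadjusted p under 0.05 there were 0 members as well, against 2.65% of all probe sets. The median of the members was -0.13 and that of all probe sets -0.05. The extremes were Cox6b2 (-1.23, SE 1.15) and Cox6a2 (0.74, SE 0.41). Without either array of the younger IL-15-/- mouse the comparison rested on the IL-15-/- mouse whose marker lists were turned, and its spread came from the pair of IL-15+/+ mice alone (1 residual degree of freedom). In that refit 4 members were called (Ndufa6, Ndufaf4, Ndufc2 and Cox6b2), which is 4.65% against 13% of all probe sets.

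Other genes of oxidative metabolism were read beside the members. Over the 3 mice, in which 14.3% of all probe sets passed in either direction, 4 of 12 respiratory chain genes outside the symbol rule did, 4 of 15 of the citric acid cycle, 2 of 29 assembly factors, 2 of 14 regulators and 4 of 13 glycolytic genes. With lists this small, these counts are descriptions. Slc25a4, a carrier that exchanges ADP for ATP, was 1.54 higher in CD16/32HI cells on the log2 scale, Etfa of the electron transfer flavoprotein 0.75 and the outer membrane channel Vdac1 0.56, while the glycerol phosphate dehydrogenase Gpd2 had a difference of -1.01. Of 15 genes of the citric acid cycle and its entry steps, Fh1 (1.48), Idh3a (0.82) and Suclg2 (0.75) were higher and Mdh2 (-1.06) lower. Of 29 assembly factors for the chain, the iron-sulfur carrier Nubpl was higher (0.58) and the copper chaperone Cox17 lower (-0.79). Among 14 regulators of mitochondrial gene expression, the coactivator Ppargc1b was higher (0.83) and Gabpb1, a subunit of the factor GABP, lower (-0.85). Of 13 glycolytic genes, the glucose transporters Slc2a1 (-0.88) and Slc2a3 (-1.09) and the hexokinase Hk3 (-0.69) were lower and Tpi1 higher (0.57).

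The medians of these lists in the 3 mice were 0.29 for the other chain genes, 0.09 for the citric acid cycle, 0.01 for assembly factors, -0.16 for regulators and -0.11 for glycolysis, against 0.15 for the members and 0.03 for all probe sets. In the comparison of genotypes within CD16/32LO cells no gene of these 5 lists passed, and their medians were 0.24, 0.30, 0.23, 0.06 and 0.28, so the citric acid cycle and glycolysis genes had about the same median as the members. In CD16/32HI cells, where no gene of them passed either, the medians in the same order were 0.10, 0.27, 0.17, 0.26 and 0.48, against 0.12 for the members.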

How the data were processed

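RNA of sorted tumor cells was measured on Affymetrix whole-transcript arrays. For each probe set the authors deposited a log2 signal, which they had background corrected, normalized and summarized with RMA in Affymetrix Expression Console (versions not given in the sources used here). Of 35557 probe sets, 21789 had 1 gene symbol in the platform annotation and were tested, 1621 had several symbols and 12147 were not listed. Of the tested ones 21698 matched RefSeq (GRCm38.p6) by gene ID. Pairs of arrays shared 11 to 106 exactly equal values within 3 sets of arrays and 0 between them. The normalization sets were inferred from this alone. The number of arrays limits the precision, with 2 mice a genotype and 1 tumor each. In the genotype comparisons p-values measure the spread between the 2 arrays of a group, pooled over the 4 groups. The 2 populations of a mouse enter there as separate arrays. In the population comparisons p-values measure the spread of the differences within mice, over 4 or 3 mice of both genotypes.

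Within a population, limma 3.58.1 compared the genotypes in R 4.3.3 with 4 group means and 1 spread over the 8 arrays. Populations and the interaction were compared with each mouse as a block. Adjusted p-values (Benjamini-Hochberg) run over all 21789 probe sets, with a threshold of 0.05. The fits were checked on simulated data with changes far larger than the differences here and with no differences between mice. That check does not show how the fits perform at the sizes seen here. Named genes were fixed core subunits, isoforms, called members and the 3 highest and 3 lowest members of a comparison, and a few others were chosen after their values were seen. Members and lists were chosen with earlier results of these data known. Alternatives were centring, quantile normalization, other probe set choices, a trended prior, blocks, the one-way ANOVA of the methods, and arrays or mice left out. The fits on 3 mice under other settings were added after the data were seen. Promoter windows came from RefSeq.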

Additional observations from a re-analysis of the deposited data

How the results depend on the processing

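With all 4 mice, the count of 0 called members between the populations became 7 without either array or without both arrays of the older IL-15-/- mouse (0 to 7 over single arrays left out; 14.3% of all probe sets were then called) and 3 in the IL-15+/+ mice alone (3.49% against 10.2%). The members' median of 0.09 ranged from -0.01 to 0.15 over single arrays left out, and it was 0.38 in the older IL-15+/+ mouse alone. In the 3 mice, 7 calls (8.14% against 14.3% in either direction) became 2 to 13 over single arrays left out (2.33% against 7.54% to 15.1% against 14.7%, median 0.06 to 0.23), 10 with quantile normalization (11.6% against 15.3%), 6 with subunits and isoforms alone, and 7 with centring, a trended prior or averaged probe sets (against 14.2% to 15.3% of all). Cox6b2 and Ndufaf4 were called under all 10 refits of the 3 mice, Cox7a1 under 8, and the 4 others under 6, with adjusted p up to 0.289 from limma. With the mouse as a block, leaving out either array of a mouse gives the same fit. Among the 10, the refits with 1 array left out are thus pairs of equal fits and not separate checks. Between genotypes 0 members were called in either population under every alternative run, including the replicate block, which left the medians at 0.12 in CD16/32HI and 0.30 in CD16/32LO cells, with 0 and 2 members at an unadjusted p under 0.05 (0% against 5.7% and 2.33% against 2.32%). The one-way ANOVA gave 1 and 14 members at that level (1.16% against 4.8% and 16.3% against 3.57% of all probe sets) and 0 members and 0 probe sets after adjustment. No member exceeded the 3-fold limit of the methods. In CD16/32LO cells the median of 0.30 was 0.19 with centring, 0.15 with quantile normalization and 0.10 with the normalization set as a block. Within replicate 1 it was 0.25 (0.00 for all probe sets), and within replicate 2 it was 0.29 (0.25 for all probe sets). It was 0.26 without both arrays of the older IL-15-/- mouse, and 0.25 to 0.31 over single arrays left out. In CD16/32HI cells the median of 0.12 ranged from -0.14 to 0.36 over single arrays left out and was -0.05 with the normalization set as a block. The fits with that block draw on the arrays of both populations, because genotype and set coincide in replicate 2. For the interaction the count was 0 to 4 and the median -0.38 to 0.047 over single arrays left out. The causes of these changes were not tested. Of 3282 values of named members under the alternatives, 2968 kept their sign. Each group holds 2 arrays, and the members' median SE in a genotype comparison was 0.28, so differences of the size of these medians could not be called in single genes.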
